A study of Mus musculus with 36 samples.

Results

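The transcripts of fibroblast growth factor (FGF) and vascular endothelial growth factor (VEGF) signalling were examined in mouse embryonic fibroblasts undergoing cardiac reprogramming. The set holds 35 genes of 50509 gene symbols, chosen by symbol from both deposited tables, in which all 35 were found. It comprises 6 FGF ligands, 6 FGF receptor and adaptor genes, 9 feedback inhibitors, 3 ETS transcription factors, 4 immediate early genes, 4 VEGF ligands and 3 VEGF receptors. The transcription factors of heart development, Gata4, Hand2, Mef2c and Tbx5 (GHMT), were introduced by transduction to turn fibroblasts toward a cardiomyocyte-like state. The 36 libraries form 12 groups of 3: GHMT cells with 1% dimethyl sulfoxide (DMSO, a polar solvent), untreated GHMT cells, uninfected cells with 1% DMSO and untreated uninfected cells, each at days 2, 7 and 21. All groups share the same source, E12.5-13.5 embryos of a mouse strain whose mCherry reporter is driven by the Myh6 promoter, active in heart muscle cells. All groups also share a StemPro34 medium containing 10 ng/mL FGF2, 50 ng/mL FGF10 and 5 ng/mL VEGF, so every cell was exposed to these proteins whatever its own transcripts. Nothing in the labels tells whether the 3 replicates of a group came from different cultures. The p-values therefore cover only the scatter among these libraries, part of which may be technical.

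FGFs bind receptor tyrosine kinases, which signal through the adaptor FRS2 and the RAS and ERK kinase cascade to the nucleus. Active ERK induces immediate early genes such as Fos and Egr1 and ETS factors of the Etv1, Etv4 and Etv5 family. It also induces its own brakes: Sprouty and Spred proteins act upstream on RAS and RAF signalling, and the phosphatases DUSP4, DUSP5 and DUSP6 remove the activating phosphates of ERK. In heart development Fgf10 is a gene of the second heart field, and FGF9 is a signal to the embryonic heart muscle. VEGFA acts through FLT1 and KDR on blood vessel cells, VEGFC through FLT4 on lymphatic cells, VEGFB and PGF through FLT1, and the neuropilins are co-receptors.

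The promoters of the members on which the DMSO results turn are printed, Dusp6 for the feedback inhibitors, Fgf10 for the FGF ligands and Vegfa for the VEGF ligands. Each window is the 250 bases before the annotated transcription start in RefSeq (GRCm38.p6), read 5′ to 3′ on the strand of the gene. Capitals mark GC boxes (GGGCGG), the hexamer bound by SP1-type factors. The Dusp6 window is chr10:99262981-99263230 on the plus strand, the Fgf10 window chr13:118714449-118714698 on the plus strand, and the Vegfa window chr17:46032378-46032627 on the minus strand, the more upstream of its 2 entries.

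Dusp6: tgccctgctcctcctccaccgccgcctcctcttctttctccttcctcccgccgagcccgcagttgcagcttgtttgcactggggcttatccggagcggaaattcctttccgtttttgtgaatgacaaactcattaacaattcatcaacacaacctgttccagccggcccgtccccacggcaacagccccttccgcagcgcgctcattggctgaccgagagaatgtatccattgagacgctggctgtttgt

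Fgf10: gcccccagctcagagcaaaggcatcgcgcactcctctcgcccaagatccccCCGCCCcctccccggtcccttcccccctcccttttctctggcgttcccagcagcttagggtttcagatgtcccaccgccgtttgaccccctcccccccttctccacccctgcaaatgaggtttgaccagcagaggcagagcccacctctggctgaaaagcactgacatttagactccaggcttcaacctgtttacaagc

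Vegfa: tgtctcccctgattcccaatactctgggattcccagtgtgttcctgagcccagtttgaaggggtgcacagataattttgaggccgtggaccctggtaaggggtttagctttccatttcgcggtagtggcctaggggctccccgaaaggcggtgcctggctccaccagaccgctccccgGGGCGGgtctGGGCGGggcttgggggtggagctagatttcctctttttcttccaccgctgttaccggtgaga

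Entries were found for 28 of the 35 members, which gave 33 windows, and not for Dusp4, Egr1, Etv4, Fgf1, Fgfr1, Fosl1 and Spry4. Motifs were searched on both strands, and overlapping matches of different motifs were counted for each. A GC box was in 24 of the 33 windows, 2 in the Vegfa window, 1 in the Fgf10 window and 0 in the Dusp6 window, against 32.7% of all 32851 windows. The ETS core CCGGAA was in 3 of the 33 windows (Fgfr4, Fgfrl1 and Frs2), against 12% of all, and the TATA box TATAAA in 2 (Etv1 and Fos), against 12.4%. The AP-1 site TGANTCA and the cyclic AMP response element TGACGTCA were in 0 of the 33, against 6.75% and 1.55% of all. A match is a description of these letters, and its absence covers only these windows.

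Expression was measured as TPM, a length-corrected share of all transcripts, which sums to a fixed total per library and keeps no read depth, so the depth is unknown and no counting interval is given. The transduced factors matched the labels: Gata4 ranged over 82.3 to 355 TPM in the 18 GHMT libraries and 0.574 to 2.73 TPM in the 18 uninfected ones. Fibroblast markers were abundant in both arms, with Col1a1 at 284 to 1247 TPM in GHMT libraries and 483 to 4565 TPM in uninfected ones. Among endothelial markers, Pecam1 and Cdh5 stayed at or below 1.18 TPM in all 36 libraries, while others were higher. Kdr ranged over 2.82 to 8.36 TPM in GHMT and 1.11 to 7.06 TPM in uninfected libraries, and Flt1 over 13.7 to 127 and 1.20 to 32.7 TPM. Differences were taken on the log2(TPM + 1) scale, which understates changes of low genes, and tested with limma over all genes of a table. Calls were made where the Benjamini-Hochberg adjusted p (two-sided) was under 0.05. In GHMT cells 34 members passed the filter of 1 TPM in at least 3 libraries, all except Fgfr4, and in uninfected cells 31 passed, all except Fgfr3, Fgfr4, Flt4 and Pgf. In bulk RNA, fewer cells of a type and less RNA per cell cannot be told apart. Replicate 3 of DMSO-treated GHMT cells at day 21, replicate 1 of the same treatment at day 7 and replicate 1 of untreated uninfected cells at day 21, the libraries left out together as an alternative, each had the lowest correlation of their group, with medians of 0.913, 0.931 and 0.942, against 0.919 to 0.970 in the other libraries, so only the first lay outside the range of the rest. The median difference of all genes tested lay between -0.10 and 0.20 over all comparisons, and between -0.05 and 0.03 after median ratio scaling.

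The cells expressed a broad FGF machinery. Among receptors, Fgfr1, the main FGF receptor of mesenchymal cells, was the most abundant by mean TPM in untreated cells of either arm. It reached 87.4 to 214 TPM in the 18 GHMT libraries and 126 to 247 TPM in the 18 uninfected ones. Fgfr2 lay at 15.4 to 38.8 TPM in GHMT and 11.1 to 33.2 TPM in uninfected libraries. Fgfrl1, a receptor without a kinase domain, lay at 25.6 to 56.7 and 18.6 to 59.2 TPM in the same order of arms, and Frs2 at 12.9 to 25.7 and 13.2 to 26.3 TPM. Fgfr4 was at or below 0.188 TPM in every library. Fgfr1 exceeded each other FGF receptor in all 36 libraries on the TPM scale.

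Fgf2, Fgf7 and Fgf18 were the FGF ligands of highest level. Fgf2, basic FGF, ranged over 14.3 to 55.3 TPM in GHMT and 23.6 to 60.3 TPM in uninfected libraries. Fgf7, keratinocyte growth factor, ranged over 8.59 to 41.9 and 18.03 to 62.8 TPM in these arms. Fgf18 ranged over 9.93 to 70.5 and 7.998 to 32.5 TPM. Fgf1, Fgf9 and Fgf10 were lower on average, with the highest library at 4.34 TPM (Fgf1, GHMT), 11.1 TPM (Fgf9, GHMT) and 15.1 TPM (Fgf10, uninfected). On the VEGF side, Vegfa and Vegfc exceeded Vegfb and Pgf on average. Nrp1 was by far the highest of the 3 VEGF receptor members, at 94.6 to 177 TPM in GHMT and 87.3 to 245 TPM in uninfected libraries. Flt4, the VEGFC receptor, was at 2.39 to 6.14 TPM in GHMT libraries and 0.231 to 0.645 TPM in uninfected ones. Pgf was at 1.14 to 14.7 TPM in GHMT libraries and 0.0298 to 1.20 TPM in uninfected ones. The arms were deposited in separate tables, and no test was made between their levels.

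The 1% DMSO comparisons asked how the solvent changed these transcripts at each day. Fgf10 fell with DMSO in GHMT cells at day 21 and Vegfa fell in uninfected cells at day 21. No other member was called in the 6 comparisons in the main fits, which used no block. At day 21 the count was 1 of 34 members in GHMT cells, against 4.59% of all genes tested (2.98% lower and 1.62% higher). In uninfected cells it was 1 of 31, against 2.36% (1.64% lower). In limma's test without a block 0 members were called at day 2 and at day 7 in either arm. With same-numbered libraries as a block within each day, added after the data were seen, 2 (Fgf7 and Pgf) were called in GHMT cells at day 7. The share of all genes was 5.34%. In uninfected cells 1 and 7 were called so at days 2 and 7, against 3.18% and 8.34%. Without the block, the number at an unadjusted p under 0.05 was 1 (GHMT, day 2), 3 (GHMT, day 7), 0 (uninfected, day 2) and 3 (uninfected, day 7). At an adjusted p under 0.05 and without the block, 0.00485%, 0.708%, 0.285% and 1.69% of all genes were called, in the same order. The share of all genes at the unadjusted threshold is not given here, so the unadjusted counts show no excess or lack. The median difference over the members was 0.01, 0.12 and -0.03 at days 2, 7 and 21 in GHMT cells, against 0.04, 0.07 and -0.06 over all genes tested. In uninfected cells it was 0.05, 0.02 and 0.07, against 0.05, 0.00 and 0.01 over all genes.

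**Figure D1:**
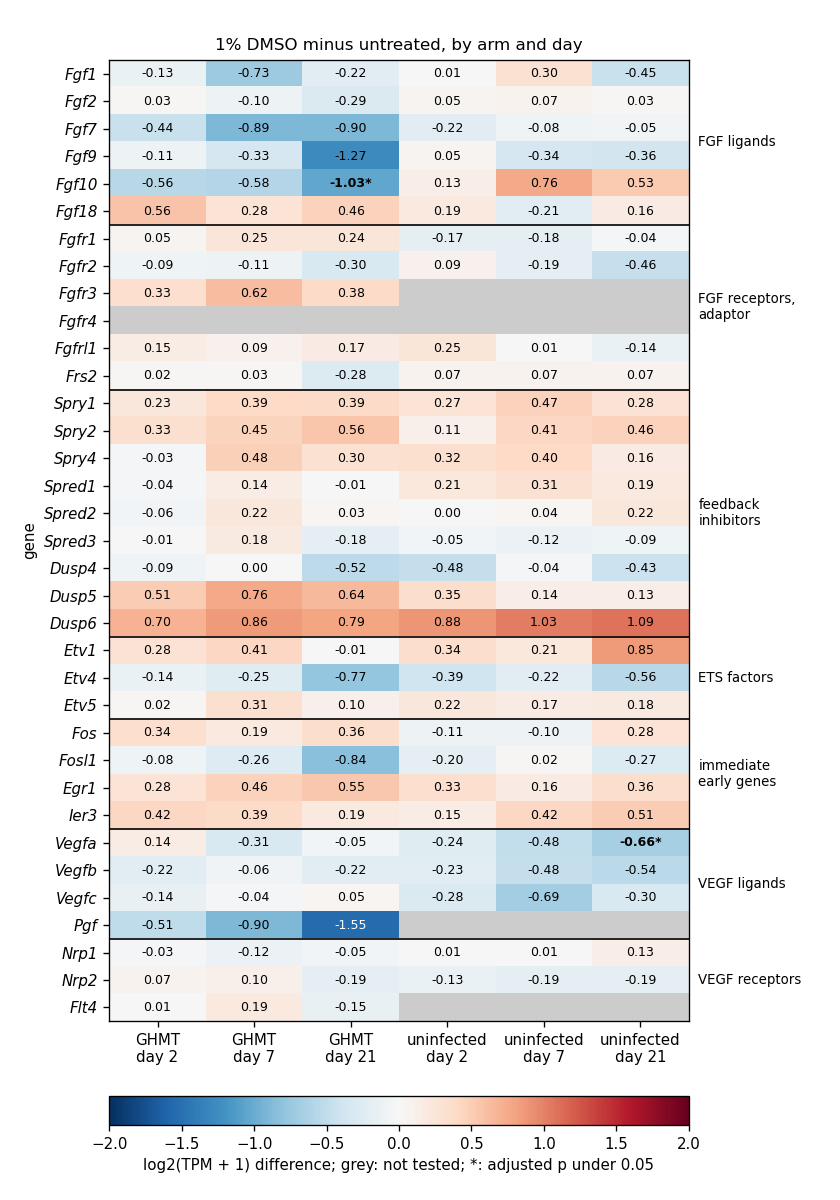
Differences of log2(TPM + 1), 1% DMSO minus untreated, for the 35 members (down the page, by role) in each arm and day (across), as colour and number, with grey for members not tested and a star at an adjusted p under 0.05. Only Fgf10 in GHMT cells at day 21 (-1.03) and Vegfa in uninfected cells at day 21 (-0.66) carry a star, and Dusp6 lies between 0.70 and 1.09 in all 6 columns.

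Fgf10, the ligand that is also supplied as protein in the medium, fell with DMSO in GHMT cells at day 21 but not in uninfected cells. In GHMT cells at day 21 it stood at 0.986, 1.19 and 1.59 TPM with DMSO, against 3.95, 3.62 and 3.21 TPM without. All 3 DMSO libraries lay below all 3 untreated ones, and the difference was -1.03 ± 0.22 (log2, SE), with adjusted p = 0.018 by limma. At day 7 it stood at 2.08, 1.94 and 1.57 TPM with DMSO, against 2.32, 4.85 and 3.03 TPM without, again without overlap (-0.58 ± 0.22, adjusted p = 0.21). At day 2 it stood at 1.85, 1.28 and 1.51 TPM with DMSO, against 1.79, 3.30 and 3.36 TPM without, where the groups overlapped (-0.56 ± 0.22, adjusted p = 1).

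In uninfected cells Fgf10 was not below its untreated level at any day. The day 7 libraries stood at 15.1, 10.8 and 9.60 TPM with DMSO, against 9.68, 6.60 and 4.13 TPM without (0.76 ± 0.26, adjusted p = 0.16). At day 21 it stood at 6.12, 4.84 and 3.75 TPM with DMSO, against 2.60, 4.33 and 2.42 TPM without (0.53 ± 0.26, adjusted p = 0.41). Each DMSO library was above its same-numbered untreated library, but the groups overlapped on both days. At day 2 the libraries stood at 5.99, 5.17 and 8.15 TPM with DMSO, against 5.91, 5.17 and 6.12 TPM without, a difference of 0.13 ± 0.26. The effect of DMSO on Fgf10 therefore differed between arms by -1.56 ± 0.34 at day 21 (GHMT minus uninfected, adjusted p = 0.026 by limma over all 36 libraries). It was 1 of 34 members called in this difference, against 0.588% of all genes. At days 7 and 2 the difference between arms was -1.34 ± 0.34 and -0.69 ± 0.34 (adjusted p = 0.17 and 1), and 0 members were called, against 0.117% and 0.00898% of all genes. At an unadjusted p under 0.05 there were 4 members at day 7 and 0 at day 2. The share of all genes at that threshold is not given here.

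The call for Fgf10 in GHMT cells was lost without untreated replicate 1 (adjusted p = 0.064), untreated replicate 2 (0.057) or DMSO replicate 2 (0.053) of day 21 and in a fit on the 6 libraries alone (0.080), and a filter at 5 TPM removed the gene. The difference between arms lost its call without any of 7 of the 12 libraries of day 21 (untreated replicates 1 and 2 and DMSO replicate 2 of GHMT cells, untreated replicates 1 and 3 and DMSO replicates 1 and 2 of uninfected cells), with adjusted p of 0.053 to 0.089. It was also lost with a pseudocount of 5 TPM (0.078), in a fit on these libraries alone (0.13) and without those 3 low-correlation libraries (0.085). The direction of both differences held in all of these. Beside it, cardiomyocyte markers differed between the GHMT groups at day 21. The summed level of 10 such genes was 4903 to 7556 TPM in DMSO libraries and 2562 to 2992 TPM in untreated ones, with 4 of 10 called higher. For 10 fibroblast markers the sums were 6941 to 9358 and 9886 to 10998 TPM, with 2 of 10 called lower. The same comparison also separated other marker sums without overlap: endothelial markers at 81.1 to 89.9 TPM with DMSO and 113 to 143 TPM without, epithelial and mesothelial markers at 265 to 348 and 361 to 673 TPM, lymphatic endothelial markers at 139 to 235 and 239 to 260.2 TPM, and skeletal muscle markers at 70.5 to 81.8 and 23.2 to 33.1 TPM. Of the 8 skeletal muscle markers, Myod1, Myog, Myf5 and Pax7 were under 0.1 TPM in every GHMT library. That sum therefore came almost wholly from Ttn, Acta1, Myh3 and Ckm. Of the 12 endothelial markers, Flt1 alone reached 127 TPM in GHMT libraries. There Kdr reached 8.36 TPM, Pecam1 and Cdh5 at most 1.15 TPM, and Cldn5 and Sox17 stayed under 0.1 TPM. The part of all these marker sums in the result was not tested.

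**Figure D2:**
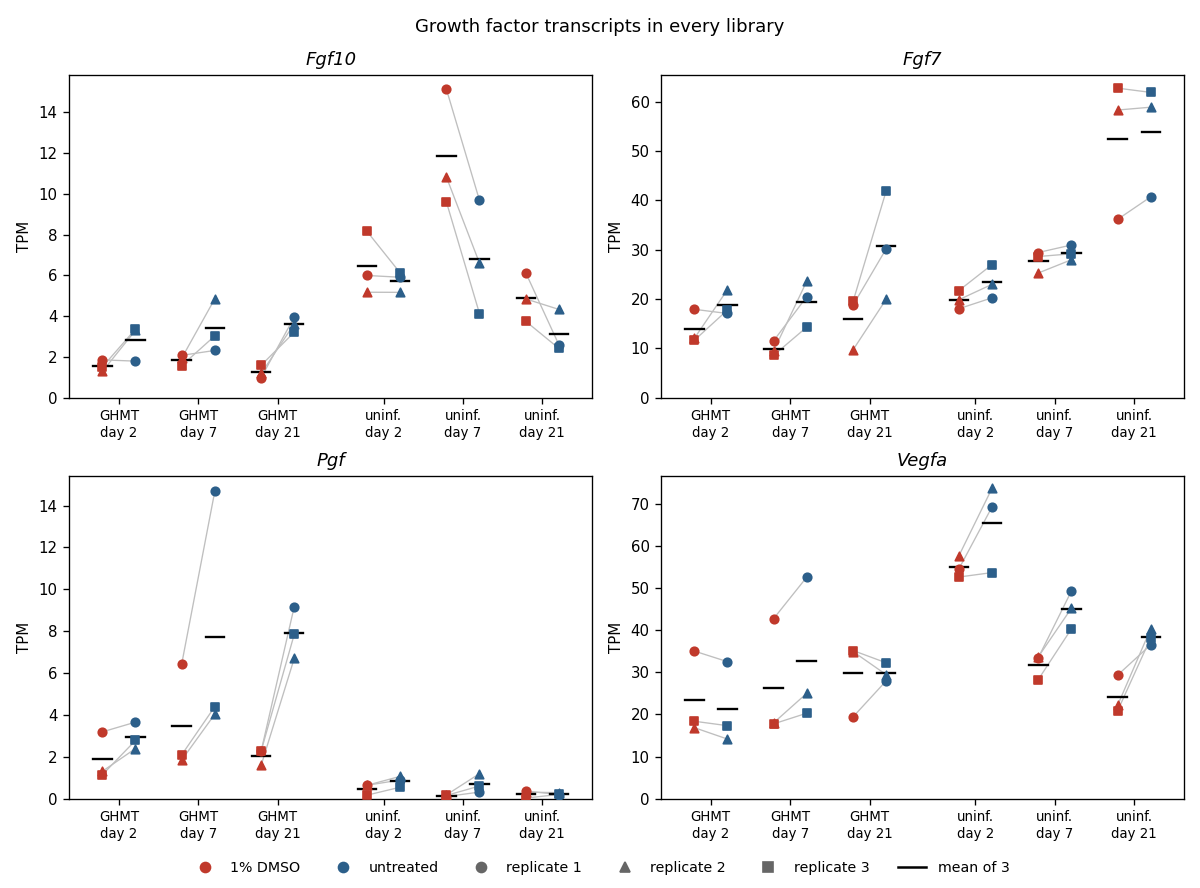
TPM of Fgf10, Fgf7, Pgf and Vegfa in each of the 36 libraries (y axes, linear from 0) by arm and day (x axes), with DMSO libraries in red left of untreated ones in blue, symbols for replicates, grey lines joining same numbers and bars for the mean of 3. The DMSO libraries of GHMT cells lie below the untreated ones for Fgf10 at days 7 and 21, and those of uninfected cells for Vegfa at days 7 and 21.

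Of the other FGF ligands in GHMT cells, Fgf7 was lower with DMSO in 8 of 9 same-numbered pairs. The day 21 libraries stood at 18.8, 9.69 and 19.5 TPM with DMSO, against 30.2, 19.9 and 41.9 TPM without, without overlap (-0.90 ± 0.29, adjusted p = 0.085). At day 7 it stood at 11.5, 9.50 and 8.59 TPM with DMSO, against 20.5, 23.6 and 14.3 TPM without, also without overlap (-0.89 ± 0.29, adjusted p = 0.17). The replicate numbers pair the libraries of GHMT cells at days 2 and 7, and with the pairs as a block within each day, a fit added after the data were seen, Fgf7 passed at day 7 (adjusted p = 0.033). In uninfected cells the difference of Fgf7 was -0.22, -0.08 and -0.05 at days 2, 7 and 21, and that of day 21 turned positive under rescaling to protein-coding genes. Fgf9 in GHMT cells at day 21 stood at 2.35, 1.74 and 2.19 TPM with DMSO, against 8.54, 3.47 and 8.63 TPM without (-1.27 ± 0.49, adjusted p = 0.13). The DMSO libraries were again the lower ones. Fgf1 at day 7 (-0.73 ± 0.26, adjusted p = 0.19) and Fgf2 at day 21 (-0.29 ± 0.36, adjusted p = 0.65) had no overlap in GHMT cells and were lower with DMSO. Fgf18 was above its untreated libraries in 9 of 9 GHMT pairs, as were 6.98% of all genes, by 0.56, 0.28 and 0.46 at days 2, 7 and 21, and was not called (adjusted p = 1, 0.88 and 0.67). In GHMT cells 3 members (Fgf1, Fgf7 and Fgf10) at day 7 and 6 members (Fgf2, Fgf7, Fgf9, Fgf10, Frs2 and Pgf) at day 21 lay below the untreated libraries without overlap. The share of all genes that did so was 6.9% and 13.2%.

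Vegfa, the VEGF ligand of blood vessel growth, fell with DMSO in uninfected cells at day 21, where it stood at 29.4, 22.2 and 20.9 TPM with DMSO, against 36.6, 40.4 and 38.2 TPM without. The groups did not overlap, as 7.15% of all genes did in this direction, and the difference was -0.66 ± 0.13 (adjusted p = 0.018 by limma). The day 7 libraries stood at 33.5, 33.7 and 28.3 TPM with DMSO, against 49.3, 45.2 and 40.3 TPM without, also without overlap (-0.48 ± 0.13, adjusted p = 0.088). At day 2 it stood at 54.6, 57.7 and 52.6 TPM with DMSO, against 69.3, 73.7 and 53.7 TPM without (-0.24 ± 0.13, adjusted p = 0.55). Vegfa was thus lower with DMSO in 9 of 9 same-numbered pairs of uninfected cells, as were 5.99% of all genes. The gene missed the threshold at day 21 when untreated replicate 2 (adjusted p = 0.071), untreated replicate 3 (0.059), DMSO replicate 2 (0.081) or DMSO replicate 3 (0.089) was left out, and in a fit on the 6 libraries alone (0.20).

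In GHMT cells Vegfa gave no uniform direction. At day 21 it stood at 19.4, 34.9 and 35.2 TPM with DMSO, against 28.0, 29.5 and 32.3 TPM without (-0.05 ± 0.42, adjusted p = 0.96), and its sign turned under protein-coding rescaling. The difference between arms was 0.61 ± 0.46 at day 21 (adjusted p = 0.58), so the effect was not shown to differ between them. Beside the fall in uninfected cells at day 21, the summed level of 8 smooth muscle markers was 51.0 to 62.8 TPM with DMSO and 158 to 183 TPM without, with 6 of 8 called lower. The sum of 10 fibroblast markers was 9145 to 10843 and 14140.2 to 15224 TPM in these groups, with 2 called lower. The sum of 12 macrophage markers was 19.9 to 54.8 and 51.5 to 112 TPM in the same groups, which overlapped, with 0 of 10 tested called. Sums of epithelial and mesothelial markers did not overlap between these groups (294 to 396 TPM with DMSO and 115 to 181 TPM without). Nor did those of lymphatic endothelial markers (229.7 to 302 and 208 to 213 TPM) or of endothelial markers (19.9 to 31.9 and 35 to 50.0 TPM). Of the endothelial markers, Flt1 alone reached 32.7 TPM in uninfected libraries, Kdr 7.06 TPM, and Pecam1 and Cdh5 at most 1.18 TPM. The part of all these marker sums in the result was not tested. Vegfb, a ligand of FLT1, was lower with DMSO in 16 of 18 same-numbered pairs over both arms. In uninfected cells at day 7 it stood at 10.3, 14.1 and 11.4 TPM with DMSO, against 17.6, 16.8 and 16.3 TPM without (-0.48 ± 0.25, adjusted p = 0.37). Vegfc at day 7 stood at 19.4, 22.8 and 17.7 TPM with DMSO, against 31.8, 33.5 and 32.9 TPM without (-0.69 ± 0.24, adjusted p = 0.17). All 3 VEGF ligands tested in uninfected cells lay below their untreated libraries without overlap at day 7, among 7 members that did so, against 14.2% of all genes.

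Pgf, placental growth factor, was detected mainly in GHMT cells and was lower with DMSO in 9 of 9 same-numbered pairs there, as were 4.21% of all genes. The day 21 libraries stood at 2.27, 1.59 and 2.28 TPM with DMSO, against 9.17, 6.70 and 7.85 TPM without. The DMSO libraries were all below the untreated ones, with a difference of -1.55 ± 0.42 and adjusted p = 0.052, just short of the threshold. Pgf passed at day 21 in 6 of 16 alternatives and not in 10, with adjusted p from 0.0020 to 0.14 by limma over all 16. It passed without DMSO replicate 1 of day 21 (adjusted p = 0.043), with a filter at 5 TPM (0.049) and in a fit on the 6 libraries alone (0.044). It also passed under rescaling to protein-coding genes (0.045) and with the replicate number as a block, over all days or within each day. At day 7 it stood at 6.45, 1.85 and 2.10 TPM with DMSO, against 14.7, 4.04 and 4.40 TPM without (-0.90 ± 0.42, adjusted p = 0.32), and it passed with the pairs as a block (adjusted p = 0.022). Flt1, the receptor of PGF and VEGFB and no member of the set, was abundant in GHMT libraries (13.7 to 127 TPM). It fell with DMSO in uninfected cells at days 7 and 21, by 1.38 and 1.29 on the log2 scale (adjusted p = 0.029 and 0.029).

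No receptor gene nor Frs2 was called with DMSO at a single day. Fgfr1 differed by 0.05, 0.25 and 0.24 in GHMT cells at days 2, 7 and 21 and by -0.17, -0.18 and -0.04 in uninfected cells. At day 21 in GHMT cells it stood at 153, 207 and 214 TPM with DMSO, against 182, 152 and 148 TPM without, with overlap. Nrp1, the co-receptor, at the same day stood at 102, 101 and 117 TPM with DMSO, against 94.6, 97.4 and 144 TPM without, a difference of -0.05 ± 0.17. Over the 6 comparisons the differences of Fgfr1, Fgfr2, Fgfrl1, Frs2, Nrp1 and Nrp2 lay between -0.46 (Fgfr2, uninfected, day 21) and 0.25, with adjusted p above the threshold for each. Fgfr2 in uninfected cells at day 21 stood at 12.8, 14.9 and 13.7 TPM with DMSO, against 11.1, 28.6 and 22.7 TPM without (-0.46 ± 0.25, adjusted p = 0.48). Without untreated replicate 1, the low one of these 3, it was called (-0.84, adjusted p = 0.024). Fgfr1, Fgfr2 and Nrp2 at day 7 and Nrp2 at day 21 lay below the untreated libraries of uninfected cells without overlap, against 14.2% and 7.15% of all genes. Frs2 did so in GHMT cells at day 21, against 13.2%. Fgfr3 in GHMT cells was higher with DMSO in 7 of 9 pairs, by 0.33, 0.62 and 0.38, and Flt4 differed by 0.01, 0.19 and -0.15, neither called.

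Among feedback inhibitors, Dusp6, the cytoplasmic ERK phosphatase, was higher with DMSO in every same-numbered pair of both arms. In GHMT cells it stood at 43.3, 71.9 and 61.8 TPM with DMSO, against 38.3, 35.3 and 32.3 TPM without at day 2, with no overlap. The day 7 libraries stood at 56.9, 132 and 198 TPM with DMSO, against 41.1, 58.0 and 103 TPM without. At day 21 it stood at 70.7, 166 and 48.8 TPM with DMSO, against 41.7, 69.1 and 37.2 TPM without. The later groups overlapped, with replicate 3 the highest at day 7 and replicate 2 at day 21 both with and without DMSO. In uninfected cells it stood at 44.2, 49.0 and 35.6 TPM with DMSO, against 25.9, 29.8 and 15.2 TPM without at day 2. The day 7 libraries stood at 63.9, 41.9 and 38.0 TPM with DMSO, against 31.9, 17.2 and 20.4 TPM without. At day 21 it stood at 214, 75.8 and 41.1 TPM with DMSO, against 125, 33.6 and 15.3 TPM without. Here the groups of days 2 and 7 did not overlap, where 11.1% and 14.5% of all genes were higher with DMSO without overlap. Replicate 1 was the highest of its group at day 21 with and without DMSO.

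The ratio of group means of Dusp6, DMSO over untreated, lay between 1.67 and 2.07 over the 6 arms and days. The log2 differences were 0.70 ± 0.48, 0.86 ± 0.48 and 0.79 ± 0.48 in GHMT cells and 0.88 ± 0.63, 1.03 ± 0.63 and 1.09 ± 0.63 in uninfected cells at days 2, 7 and 21. None was called at a single day without a block (adjusted p = 1, 0.42, 0.33, 0.68, 0.47 and 0.51, listed in the same sequence). A mean of the effects over the 3 days was therefore taken, a comparison added after the data were seen. Over both arms it was 0.89 ± 0.24, with adjusted p = 0.0070 by limma. It passed under all 45 alternatives tried for it, with adjusted p from 1.1e-06 to 0.015. Within GHMT cells alone the mean was 0.78 ± 0.28 and within uninfected cells 1.00 ± 0.37 (adjusted p = 0.074 and 0.086). With the block within each day, also added later, Dusp6 passed in uninfected cells at days 2, 7 and 21 (adjusted p = 0.022, 0.0063 and 0.0028 by limma). It passed so in GHMT cells at day 21 (0.048) but not at days 2 and 7. In the groups where it passed, not every same-numbered pair had a correlation above 0.1. The difference of the Dusp6 effect between arms was -0.18 ± 0.82, -0.17 ± 0.82 and -0.30 ± 0.82 at days 2, 7 and 21, with adjusted p from 0.91 to 1.

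**Figure D3:**
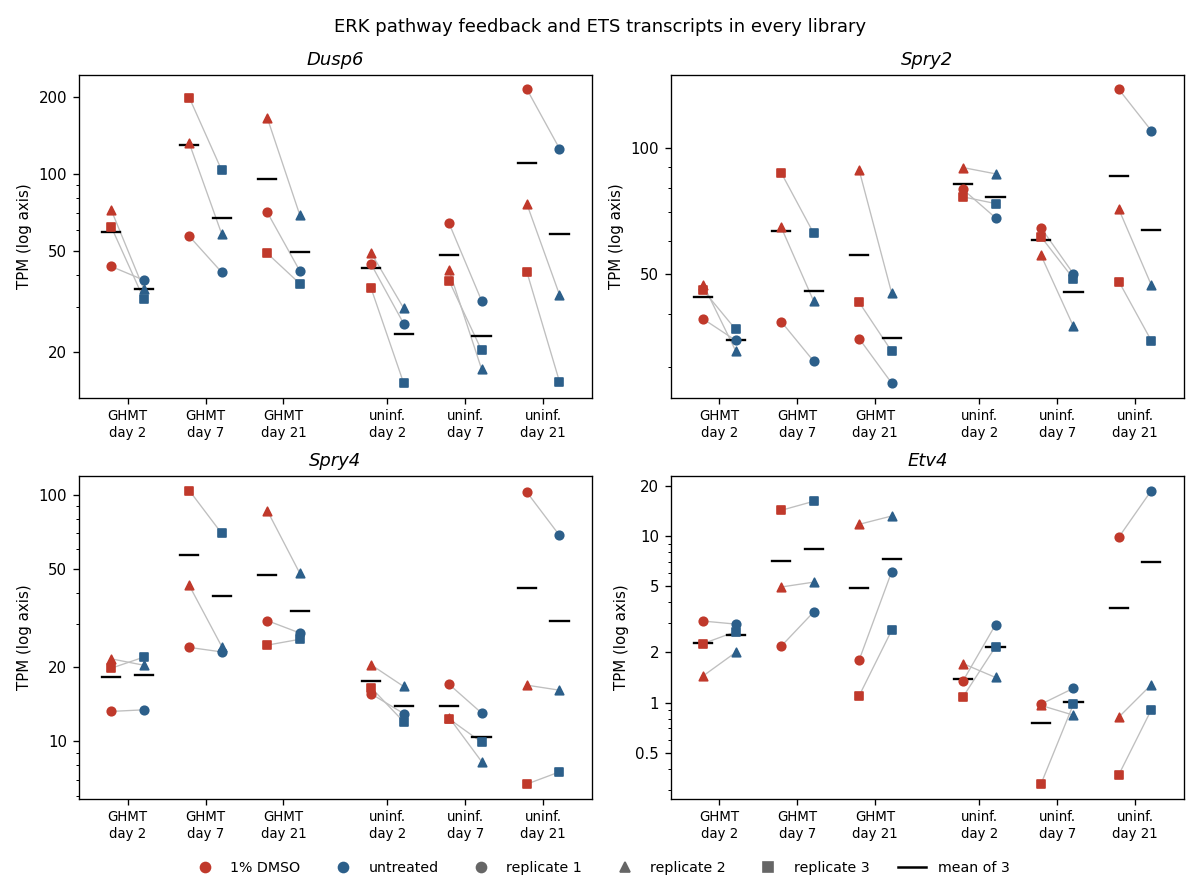
TPM of Dusp6, Spry2, Spry4 and Etv4 in each of the 36 libraries (y axes, logarithmic) by arm and day (x axes), with DMSO libraries in red left of untreated ones in blue, symbols for replicates, grey lines joining same numbers and bars for the mean of 3. Every line of Dusp6 and Spry2 runs down toward the untreated library, and replicate 1 of uninfected cells at day 21 stands above replicates 2 and 3 in all 4 genes.

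Spry2, a Sprouty inhibitor of receptor tyrosine kinase signalling, and Ier3, an immediate early gene, were also higher with DMSO in all 18 same-numbered pairs. Together with Dusp6 these were 3 of the 31 members tested in both arms, against 2.27% of all genes. After median ratio scaling Dusp6 was still above in 18 pairs, and Spry2 and Ier3 each in 16. In GHMT cells at day 2, where Dusp6, Spry2 and Ier3 were the 3 members above the untreated libraries without overlap (against 6.71% of all genes), Spry2 stood at 39.0, 47.1 and 45.7 TPM with DMSO, against 34.7, 32.7 and 36.8 TPM without (0.33 ± 0.34, adjusted p = 1). In uninfected cells at day 7 it stood at 64.4, 55.4 and 61.3 TPM with DMSO, against 50.0, 37.4 and 48.7 TPM without, also without overlap (0.41 ± 0.37, adjusted p = 0.64). Its mean over the days and arms was 0.39 ± 0.15 (adjusted p = 0.063). Ier3 at day 21 in uninfected cells stood at 40.0, 52.3 and 33.5 TPM with DMSO, against 33.2, 28.3 and 25.1 TPM without (0.51 ± 0.30, adjusted p = 0.52). The groups did not overlap, as 7.49% of all genes did in this direction. The mean of Ier3 over days and arms was 0.35 ± 0.12 (adjusted p = 0.030), a call lost in 13 of 45 alternatives, median ratio scaling among them.

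The inhibitors did not move as one. Dusp5, a nuclear ERK phosphatase, was higher with DMSO in 17 of 18 pairs (mean over days and arms 0.42 ± 0.20, adjusted p = 0.13). Spry1 was higher in 16 of 18 pairs, Spry4 in 14, Spred1 in 14 and Spred2 in 13. Dusp4, another nuclear phosphatase of ERK, was lower in 15 of 18 pairs (-0.26 ± 0.29, adjusted p = 0.58). Spred3 had no direction, higher in 9 pairs and lower in 9. The median difference of the 9 inhibitors was -0.01, 0.39 and 0.30 at days 2, 7 and 21 in GHMT cells and 0.21, 0.31 and 0.19 in uninfected cells. Of the ETS factors, Etv1 was higher in 16 of 18 pairs (0.35 ± 0.18, adjusted p = 0.18) and Etv4 was lower in 15 of 18 (-0.39 ± 0.32, adjusted p = 0.42). Etv5 was higher in 11. Egr1, an immediate early transcription factor, was higher in 17 of 18 (0.36 ± 0.21, adjusted p = 0.25), Fos in 11, and Fosl1, a FOS relative, was lower in 12. Transcripts that ERK signalling is known to induce thus stood on both sides of the untreated level. Over days and arms Dusp6 and Ier3 were called without a block, Dusp5, Egr1 and Spry2 as well with the replicate number as a block, and with the block within each day also Dusp4, Etv1, Etv4, Fosl1, Spred1, Spry1 and Spry4.

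Over the 3 days together, 5 of 34 members were called in the fit over both arms, against 23.4% of all genes: Dusp6 and Ier3 rose, and Fgf7 (-0.43 ± 0.10, adjusted p = 0.0027), Pgf (-0.64 ± 0.14, 0.0012) and Vegfb (-0.29 ± 0.09, 0.019) fell. Pgf passed the filter through GHMT cells alone and was not tested in uninfected cells. Within GHMT cells 3 of 34 were called, against 13.4% (5.7% lower). These were Fgf10 (-0.73 ± 0.13, adjusted p = 0.0028), Fgf7 (-0.74 ± 0.17, 0.011) and Pgf (-0.98 ± 0.25, 0.018), all growth factor ligands and all lower. Within uninfected cells 1 of 31 was called, against 14.1% (6.03% lower): Vegfa (-0.46 ± 0.08, adjusted p = 0.0015). Fgf10 (higher) and Vegfc (lower) were called as well in uninfected cells with a filter at 5 TPM, after either rescaling and with either block, and Vegfc also without those 3 low-correlation libraries. With the block within each day the counts were 10 of 34 in GHMT cells, 14 of 31 in uninfected cells and 19 of 34 over both arms, against 23.3%, 23.5% and 33.1% of all genes. Fgf10, Fgf7 and Pgf in GHMT cells and Vegfa in uninfected cells kept their calls under every alternative tried for these means. The count in GHMT cells was 5 without untreated replicate 1 of day 7. The share of all genes called there was 8.17 to 19.3% over the fits with 1 library left out.

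The feedback, ETS and immediate early members differed widely in their spread between libraries of the same group, and those named here were chosen after their values were seen. The highest library of a group over its lowest reached 8.17 for Dusp6, 15.2 for Spry4, 10.5 for Spry1, 15.1 for Dusp4, 26.6 for Etv4, 10.6 for Etv5 and 14.8 for Fosl1. All of these extremes were in uninfected cells at day 21. Among the same 3 roles it stayed at or below 1.90 for Spred3, 2.41 for Ier3, 2.72 for Spred1 and 3.17 for Spry2. Outside them it reached 7.53 for Fgf9, and 12.2 for Pgf in DMSO-treated uninfected cells at day 21. That Pgf ratio compares 0.364 with 0.0298 TPM, in an arm where Pgf did not pass the filter. In uninfected cells at day 21 the highest library exceeded the lowest more than 5-fold for 8 of 31 members with DMSO and for 8 without, against 8.22% and 9.31% of all genes tested. There Spry4 stood at 102, 16.9 and 6.72 TPM with DMSO, against 68.4, 16.1 and 7.52 TPM without. Spry1 stood at 210.3, 37.7 and 20.0 TPM with DMSO, against 164, 28.5 and 18.5 TPM without. Etv4 stood at 9.85, 0.819 and 0.370 TPM with DMSO, against 18.7, 1.28 and 0.907 TPM without. Replicate 1 was the highest library for these genes, and for 14 of the 16 members of the 3 roles with DMSO (not Fos and Ier3) and 14 of 16 without (not Fos and Spred3).

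In GHMT cells at day 7 replicate 3 was the highest library for 13 of these 16 members with DMSO (not Spred3, Etv1 and Ier3) and 15 of 16 without (not Ier3). At day 21 replicate 2 was the highest for 13 of 16 with DMSO (not Fos, Egr1 and Ier3) and 12 of 16 without (Etv5 was the other exception). Spry4 stood at 24.0, 42.8 and 104 TPM with DMSO, against 23.0, 24.2 and 69.6 TPM without at day 7. The day 21 libraries stood at 30.9, 86.3 and 24.6 TPM with DMSO, against 27.5, 48.1 and 25.9 TPM without. Dusp4 at day 21 stood at 6.66, 23.4 and 5.77 TPM with DMSO, against 13.3, 26.9 and 8.28 TPM without, again with replicate 2 highest. By contrast, the highest library of a group exceeded its lowest by at most 1.67-fold for Fgfr1, 1.55-fold for Fgfrl1 and 1.77-fold for Frs2.

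The time comparisons asked how the set changed between days 2 and 21. In GHMT cells the receptor genes Fgfr1, Fgfr3 and Nrp2 and the ligands Fgf1 and Vegfb rose, and in uninfected cells the early genes Fos and Ier3 rose and Vegfa fell. With DMSO 9 of 34 members were called in GHMT cells, against 37.6% of all genes, and 8 of 31 in uninfected cells, against 15.1%. Without DMSO 8 of 34 were called in GHMT cells, against 24.6%, and 8 of 31 in uninfected cells, against 11%. The count of 9 was 5 without DMSO replicate 1 or 2 of day 2 and 4 without DMSO replicate 2 of day 21. In untreated uninfected cells it was 5 without replicate 1 of day 2 or replicate 2 of day 21. Over all fits with 1 library left out, 26.6 to 41.4% and 6.55 to 11.2% of all genes were called in these 2 comparisons. In the full fits the share of members called was below that of all genes in DMSO-treated GHMT cells and above it in uninfected cells.

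**Figure D4:**
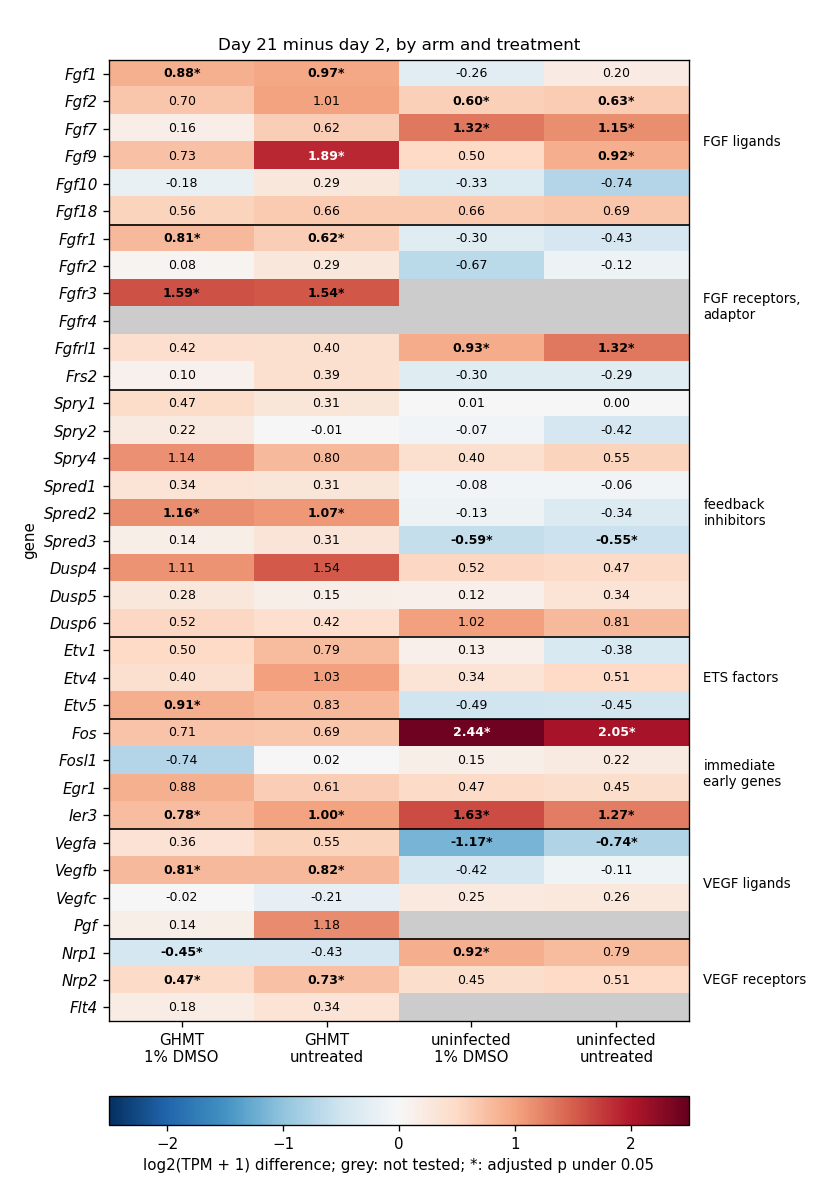
Differences of log2(TPM + 1), day 21 minus day 2, for the 35 members (down the page, by role) in each arm with and without DMSO (across), as colour and number, with grey for members not tested and a star at an adjusted p under 0.05. Fgfr3, Spred2 and Vegfb carry stars in both GHMT columns, Fos, Fgfrl1, Fgf7 and Vegfa in both uninfected columns, and Ier3 in all 4.

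In GHMT cells Fgfr3, an FGF receptor known for its role in cartilage, rose with 4.06, 6.99 and 7.68 TPM at day 21 against 1.01, 1.54 and 1.54 TPM at day 2 in DMSO-treated cells. Its differences were 1.59 ± 0.31 with DMSO and 1.54 ± 0.31 without (adjusted p = 0.0016 and 0.0031). Fgfr1 rose by 0.81 with DMSO and 0.62 without (adjusted p = 0.0042 and 0.025). The RAS inhibitor Spred2 rose by 1.16 and 1.07 (adjusted p = 0.0032 and 0.0081). Days 2 and 21 did not overlap for Fgfr3, with or without DMSO. Fgf1 rose by 0.88 and 0.97, Vegfb by 0.81 and 0.82, and Ier3 by 0.78 and 1.00 (adjusted p between 0.0039 and 0.026). Fgf9 rose in untreated GHMT cells, at 8.54, 3.47 and 8.63 TPM on day 21 against 1.21, 0.964 and 0.868 TPM on day 2 (1.89 ± 0.49, adjusted p = 0.012). With DMSO its difference was 0.73 ± 0.49 (adjusted p = 0.26). Etv5 rose with DMSO (0.91 ± 0.34, adjusted p = 0.046), and Nrp2 rose by 0.47 with DMSO and 0.73 without (adjusted p = 0.047 and 0.0084). Nrp1 fell in GHMT cells with DMSO (-0.45 ± 0.17, adjusted p = 0.048).

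In uninfected cells Fos, the founding AP-1 gene, rose most. With DMSO it stood at 511, 585 and 239 TPM at day 21, against 83.8, 54.7 and 94.4 TPM at day 2 (2.44 ± 0.36, adjusted p = 0.00049). Without DMSO it stood at 311, 597 and 215 TPM, against 97.2, 62.8 and 89.0 TPM (2.05 ± 0.36, adjusted p = 0.0024). All day 21 libraries exceeded all day 2 libraries. Ier3 rose by 1.63 and 1.27, Fgf7 by 1.32 and 1.15, and Fgfrl1 by 0.93 and 1.32, given with DMSO first (adjusted p at most 0.015). Vegfa fell, with DMSO to 29.4, 22.2 and 20.9 TPM at day 21, against 54.6, 57.7 and 52.6 TPM at day 2. Its differences were -1.17 ± 0.13 with DMSO and -0.74 ± 0.13 without (adjusted p = 6.9e-05 and 0.0030). Fgf2 rose by 0.60 and 0.63, Nrp1 with DMSO by 0.92 and Fgf9 without DMSO by 0.92 (adjusted p from 0.025 to 0.039). Spred3 fell by 0.59 and 0.55 on the log2 scale (adjusted p = 0.0089 and 0.018). Fgfr1, called higher over time in GHMT cells, differed by -0.30 and -0.43 in uninfected cells (adjusted p = 0.29 and 0.13), and the difference of these time effects between arms was not tested.

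The time calls held unequally under the alternative settings. In GHMT cells with DMSO the call was lost for Etv5, Nrp2 and Nrp1 in 10 of 15 settings each (adjusted p up to 0.21, 0.17 and 0.14), for Ier3 in 6 of 15 (up to 0.11) and for Fgf1 in 2 of 14. Without DMSO it was lost for Fgfr1 in 5 of 15 (up to 0.11), for Fgf1 in 2 of 14, and for Fgf9 and Ier3 in 1 of 15 each. In uninfected cells Fgf2 lost it in 7 of 15 with DMSO and 8 of 15 without (up to 0.19 and 0.098), Nrp1 with DMSO in 6 of 15 (up to 0.093) and Fgf9 without DMSO in 6 of 13 (up to 0.13). Spred3 lost it in 1 of 15 with DMSO and 3 of 15 without, and Ier3 without DMSO in 2 of 15. The calls of Fgfr3, Spred2 and Vegfb in GHMT cells and of Fos, Fgf7, Fgfrl1 and Vegfa in uninfected cells were lost in 0 settings, with or without DMSO, as were those of Fgfr1 with DMSO and Nrp2 without in GHMT cells and of Ier3 with DMSO in uninfected cells. Marker sums moved over the same days. In GHMT cells the cardiomyocyte sum was 4903 to 7556 TPM at day 21 and 712 to 1267 TPM at day 2 with DMSO, and 2562 to 2992 and 452 to 1138 TPM without. Other sums also rose there without overlap. With DMSO, endothelial markers summed to 81.1 to 89.9 and 22.0 to 34.3 TPM, and epithelial and mesothelial markers to 265 to 348 and 115 to 171 TPM. Smooth muscle markers summed to 992 to 1944 and 492 to 742 TPM, and skeletal muscle markers to 70.5 to 81.8 and 1.14 to 2.60 TPM. These lists rose without overlap in untreated GHMT cells too, as did the fibroblast and lymphatic endothelial lists. In uninfected cells the fibroblast sum was 9145 to 10843 TPM at day 21 and 13137 to 20798 TPM at day 2 with DMSO, and 14140.2 to 15224 and 18225 to 28042 TPM without. Epithelial and mesothelial markers summed to 294 to 396 TPM at day 21 and 57.9 to 135 TPM at day 2 with DMSO there, and to 115 to 181 and 72.8 to 149 TPM without. In uninfected cells lymphatic endothelial sums also rose without overlap, with and without DMSO. Endothelial and macrophage sums did so without DMSO, while smooth muscle and cardiomyocyte sums fell without overlap with DMSO. The part of all these marker sums in the time results was not tested.

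**Figure D5:**
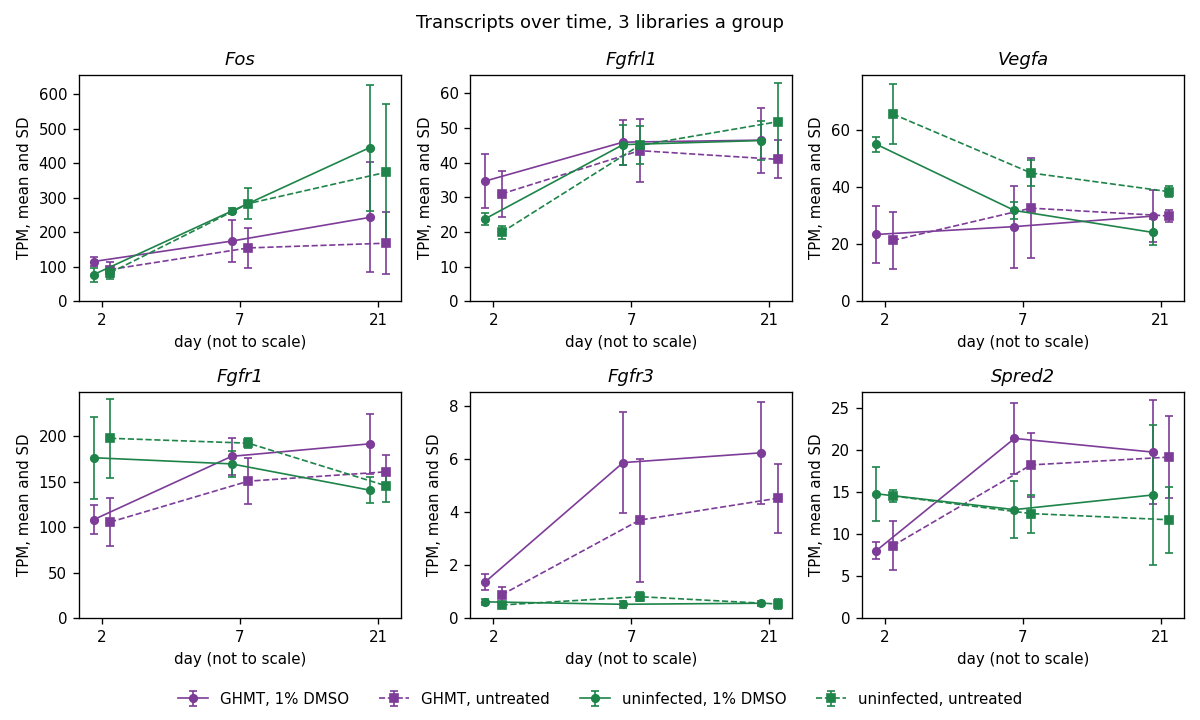
Mean TPM with SD of 3 libraries (y axes, linear from 0) of Fos, Fgfrl1, Vegfa, Fgfr1, Fgfr3 and Spred2 at days 2, 7 and 21 (x axes, not to scale), with colour for the arm, solid lines for DMSO and broken lines for untreated cells. Fos climbs and Vegfa declines in uninfected cells, while Fgfr1 and Fgfr3 climb in GHMT cells.

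Related genes outside the set, taken from lists of the same pathways, were examined in the same fits. Of the 22 genes of the RAS to ERK core, 0 were called by limma in any of the 6 DMSO comparisons, and likewise 0 of the other feedback inhibitors and 0 of the other immediate early genes, against the 0.00485% to 4.59% of all genes given above for these comparisons. At an unadjusted p under 0.05 there were, over the 6 comparisons, 0 to 4 core genes, 0 to 3 of the other inhibitors and 0 to 4 of the other early genes. The share of all genes at that threshold is not given here. Among other FGF ligands in GHMT cells at day 21, 1 was called higher and 2 lower of 4 tested, against 1.62% and 2.98% of all genes. Fgf11, an intracellular FGF homologue, rose (0.79 ± 0.20, adjusted p = 0.041), while Fgf14, also intracellular (-1.46 ± 0.32, 0.022), and Fgf16, a secreted ligand (-1.08 ± 0.28, 0.042), fell. In uninfected cells at day 21, 1 of 3 tested was called, against 2.36% of all genes: Fgf21, an endocrine FGF, which fell (-0.99 ± 0.23, adjusted p = 0.036). Of 13 co-receptors and proteoglycans tested, Flrt2 and Sdc1 fell in GHMT cells at day 21 (-0.54 and -0.72, each with adjusted p = 0.030). In uninfected cells Flrt2 fell at day 7 (-0.55, adjusted p = 0.032) and Gpc2 at day 21 (-0.76, 0.013). Pdgfc, a platelet-derived growth factor of the same superfamily as VEGF, fell in GHMT cells at day 21, with 11.7, 7.48 and 9.07 TPM against 36.1, 23.8 and 27.6 TPM (-1.53 ± 0.20, adjusted p = 0.0011). Sema3b, a semaphorin that binds neuropilins, fell in uninfected cells at days 7 and 21 (-1.75 and -2.15, adjusted p = 0.030 and 0.0062).

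Over time in uninfected cells, 6 of 19 other immediate early genes tested rose with DMSO and 4 of 19 without, against 4.86% and 5.16% of all genes, and 0 fell. Fosb, an AP-1 partner of the FOS family, rose by 3.21 and 2.76, and Btg2, an antiproliferative early gene, by 1.95 and 1.81, with DMSO first, and Junb, another AP-1 gene, by 2.25 and 2.07 (adjusted p at most 0.0025). In GHMT cells 2 of these 19 rose and 2 fell with DMSO, against 21.4% and 16.2% of all genes. There Maff rose by 0.97 (adjusted p = 0.013) and Klf6 and Atf3 fell by 0.80 and 1.76 on the log2 scale (adjusted p = 0.0018 and 0.0040). Flt1, the VEGF receptor, rose in every arm and treatment, by 1.92 and 2.04 in GHMT cells and 2.04 and 2.79 in uninfected cells, each with DMSO first (adjusted p at most 0.00036). The median difference of the 19 other early genes was 0.61 with DMSO and 0.87 without in uninfected cells, against -0.10 and -0.06 over all genes.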

How the data were processed

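RNA-seq libraries of 36 samples were made with TRIzol, a Direct-zol kit and a TruSeq RNA kit, per the labels' protocols. Trimmomatic, FastQC and kallisto were used, as named in the submitters' processing notes. Build, annotation and strand setting: not given in the sources used here. The authors deposited TPM per gene, 1 table per arm, per the file headers. From these, log2(TPM + 1) was analysed with limma 3.58.1 in R 4.3.3, with 1 mean per group, a mean-variance trend, 12 residual degrees of freedom per table (24 over both), a filter of 1 TPM in at least 3 libraries and Benjamini-Hochberg adjustment over all genes. Entries with no gene name held 0.248 to 4.81% of TPM and were left out. Means of the DMSO effect over days, a replicate block within each day and the GC and TATA boxes were added after the data were seen. The 35 members and the gene lists were chosen with earlier results of these data known. All 35 members are accounted for; values in every library are given for members called with DMSO and those that lead a role, and for others singled out after their values were seen; from each pathway list at most 2 called genes per direction and comparison are named. Same-numbered DMSO and untreated libraries deviated together in GHMT cells (correlations 0.19 to 0.34 at day 2 and 0.18 to 0.25 at day 7, each above 0.1) which pairs them there by the data, not the labels. The tests in the text use no block unless one is named. Pairs entered such alternative fits and the counts of same-numbered libraries, which cover all groups and are descriptions without a test. The fitting was tested on simulated data. Alternatives were pseudocounts, filters, scalings, the block, smaller fits and left-out libraries.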

Additional observations from a re-analysis of the deposited data

Results flagged for a closer look

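The effect of DMSO on Fgf10 at day 21 differed between the arms by -1.56 on the log2(TPM + 1) scale (GHMT minus uninfected, SE 0.34, adjusted p = 0.026, limma over 36 libraries). In GHMT cells all 3 DMSO libraries were below the untreated ones, and in uninfected cells each DMSO library was above its same-numbered untreated one. The levels are low, at most 6.12 TPM at day 21, and the depth behind them is unknown.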

How the results depend on the processing

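Counts of members called moved as follows, each given with the share of all genes called in the same fit. With rescaling to the protein-coding total the count was 2 in GHMT cells at day 21 (6.8%) and 3 for the mean over days in uninfected cells (19%). With the replicate number as a block it was 2 (GHMT, day 21, 6.09%), 1 (uninfected, day 7, 3.58%), 2 (difference between arms, day 21, 0.966%), 5 (mean, uninfected, 17.4%) and 9 (mean, both arms, 26%). With the block within each day it was 2 (GHMT, day 7, 5.34%), 9 (GHMT, day 21, 12.3%), 1, 7 and 5 (uninfected, days 2, 7 and 21, 3.18%, 8.34% and 7.51%), 1 and 4 (arms, days 7 and 21, 0.975% and 2.88%), 10 (mean, GHMT), 14 (mean, uninfected) and 19 (mean, both arms), the last 3 with the shares given above. By the correlation check, with every pair above 0.1, the numbers pair the libraries in GHMT cells at days 2 and 7. In the other groups the correlations of same-numbered libraries were 0.02 to 0.25, and none of these groups had every pair above 0.1. Libraries there still correlated best with their own number, except in uninfected cells at day 21. In a fit on the groups compared alone it was 1 (uninfected, day 7, 3.23%), 0 (uninfected, day 21, 0.491%), 5 and 5 (uninfected over time with and without DMSO, 6.48% and 3.08%) and 0 (arms, day 21, 0.0498%). Without those 3 low-correlation libraries it was 3 (uninfected, day 21, 3.62%), 0 (arms, day 21, 0.437%), 6 (mean, uninfected, 16.8%) and 10 (mean, both arms, 23.7%). It was 0 for the arms at day 21 with a pseudocount of 5 TPM (0.952%). For the mean in uninfected cells it was 3 with a filter at 5 TPM (18.9%) and 4 with median ratio scaling (14.5%). Leaving out 1 library gave 0 to 3 at day 21 in either arm (GHMT 1.33 to 15.3%, uninfected 1.12 to 3.62%). It gave 0 to 1 for the arms at day 21 (0.276 to 6.24%). Over time it gave 4 to 7 and 6 to 8 in GHMT cells with and without DMSO (26.6 to 41.4% and 14.6 to 22%). In uninfected cells it gave 6 to 8 and 5 to 9 in that order (9.12 to 15.5% and 6.55 to 11.2%). For the means it gave 3 to 5 (GHMT, 8.17 to 19.3%), 1 to 6 (uninfected, 11 to 16.8%) and 4 to 7 (both arms, 21 to 25.6%). The count stayed 0 to 0 at days 2 and 7 (GHMT 0 to 0.00972% and 0.0537 to 0.54%, uninfected 0.0503 to 0.146% and 0.408 to 0.779%, arms 0.0045 to 0.0135% and 0.0225 to 0.238%). The count of 3 came without DMSO replicate 1 (GHMT, day 21) and without untreated replicate 1 (uninfected, day 21). For the mean in uninfected cells it was 2 to 6 without untreated replicate 1 of days 2, 7 or 21, untreated replicate 2 of day 21, or DMSO replicate 3 of days 2 or 21. Uncalled differences changed sign as follows: Fgf7 in uninfected cells at day 21 (0.019 with protein-coding rescaling, -0.24 to 0.19 without 1 library), Fgf10 in uninfected cells at day 2 (-0.033 without DMSO replicate 3, -0.033 to 0.25 over all), and Vegfa in GHMT cells without 1 library at day 2 (-0.18 to 0.48), day 7 (-0.71 to 0.086) and day 21 (-0.19 to 0.23; 0.033 with protein-coding rescaling). The cause was not tested. Depth is unknown from TPM.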
